A study of Mus musculus with 6 samples.

Results

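Regulators of G protein signalling (RGS proteins) are the enzymes that switch heterotrimeric G proteins off. A receptor with a chemokine, lipid or prostaglandin bound loads the Gα subunit with GTP, and the RGS domain speeds up the hydrolysis of that GTP, so that the Gα subunit binds Gβγ again and the signal ends. In lymphocytes these proteins are known for shortening the response to chemokines and so for setting how long a T cell migrates or stays in place. The family is divided by sequence. The R4 group, mostly small proteins, is here *Rgs1*, *Rgs2*, *Rgs3*, *Rgs16* and *Rgs18*. The R12 group is *Rgs10* and *Rgs14*, and the RZ group is *Rgs19*. *Rgs11* is of the R7 group, whose members need the Gβ5 subunit as a partner.

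The 9 named genes were taken as a list of symbols from the 45777 genes of the deposited tables, without a threshold on their values but with earlier results of these data known, and the read counts of all transcripts of a gene were summed. All 9 passed the filter on low counts that left 16123 genes to test. CD4+Lrig1+ and CD4+Lrig1- T cells had been sorted by flow cytometry from spleen, the mice being female C57BL/6 animals at 7 weeks of age. In GRCm38 coordinates of the tables, *Rgs1* spans chr1:144244669-144249104, *Rgs2* chr1:143999338-144004149, *Rgs3* chr4:62559835-62703019, *Rgs10* chr7:128373621-128419506 and *Rgs11* chr17:26202527-26211324. *Rgs14* spans chr13:55369732-55384687, *Rgs16* chr1:153740353-153745468, *Rgs18* chr1:144752683-144775427 and *Rgs19* chr2:181688419-181694537. No treatment or gene alteration is named for either group. Lrig1 is a surface protein with leucine-rich repeats and immunoglobulin-like domains. By the labels each group has 3 samples. Only 2 tables give the group in their column names, and each holds 1 Lrig1+ and 1 Lrig1- library, called set 1 and set 2 here, so that n = 2 per group. The comparison asks how the transcripts of these regulators differed between the CD4 cells that carried Lrig1 on their surface and those that did not.

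Facts of the libraries bear on all values below. The total ran from 44865070 to 59977951 estimated gene counts per library. *Lrig1*, the gene behind the sort, stood at 221 and 129 CPM (counts scaled to 1000000 per library, after adjusting the library total by TMM) in the Lrig1+ libraries of set 1 and set 2 and at 75.4 and 36.7 CPM in the Lrig1- libraries. The T cell genes were present in every library, with a summed level of 4677 to 7238 CPM for 10 genes and none of the 10 at 0. The 8 regulatory T cell markers on the list, among them *Foxp3*, were all higher in the Lrig1+ library of both sets, with sums of 2463 and 2144 CPM against 257 and 182 CPM, and none was at 0 in any library. The 8 naive T cell markers were all lower, with sums of 3332 and 4066 CPM against 5742 and 8288 CPM. These are bulk libraries, so a smaller share of cells that use a gene and less RNA per cell cannot be told apart. The study describes its data in general as coming from independent experiments, but the labels do not tie the libraries to animals. The p-values therefore measure the spread between these libraries or, in fits with a term for the set, how far the ratios of the 2 sets differ.

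Of the 9 genes, 4 were higher in the Lrig1+ library of both sets (*Rgs1*, *Rgs3*, *Rgs10* and *Rgs16*) and 5 were lower in both (*Rgs2*, *Rgs11*, *Rgs14*, *Rgs18* and *Rgs19*), so that no gene changed direction between the sets. Over all genes tested, 36.5% were higher in both sets and 41.3% were lower in both. The sizes ranged widely, from a ratio of 25.1 and 24.1 for *Rgs16* in set 1 and set 2 to one of 0.891 and 0.906 for *Rgs14*. Both Lrig1+ libraries lay above both Lrig1- libraries for 3 genes (*Rgs1*, *Rgs3* and *Rgs16*), where 14.3% of all genes did so, and below them for 3 genes (*Rgs2*, *Rgs18* and *Rgs19*), where 11.8% of all genes did so.

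Without a term for the set, edgeR's quasi-likelihood test called 0 of the 9 higher and 0 lower, as it called 0.0% of all genes higher and 0.0% lower, and the smallest adjusted p over all genes was 0.501. At an unadjusted p under 0.05 it held 2 of the 9 genes as higher, *Rgs1* and *Rgs16*, beside 4.18% of all genes, and 0 as lower, beside 1.41%. The Wald test of DESeq2 without that term called 1 gene higher, *Rgs16*, beside 1.7% of the 15497 genes to which it gave an adjusted p, and 0 lower, beside 0.323%. With the set as a term, the quasi-likelihood test called 4 higher (*Rgs1*, *Rgs3*, *Rgs10* and *Rgs16*), beside 14.6% of all genes, and 4 lower (*Rgs2*, *Rgs11*, *Rgs18* and *Rgs19*), beside 12.8%. DESeq2 with that term called the same 4 and 4, beside 11.5% and 12.2% of all genes. The 2 kinds of fit differ in what they compare, since the term removes each set's own level and leaves the Lrig1+ to Lrig1- difference within it. That leaves 1 residual degree of freedom, against 2 without the term. The edgeR and DESeq2 fits also borrow from the spread of the other genes, so a single gene's p-value does not rest on its own libraries alone. In edgeR the common coefficient of variation beyond counting error was 0.096 with the term and 0.643 without it. The adjusted p-values given below for single genes are from edgeR's fit with that term unless another is named, and edgeR made none of these calls from the 4 libraries without it.

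**Figure D1:**
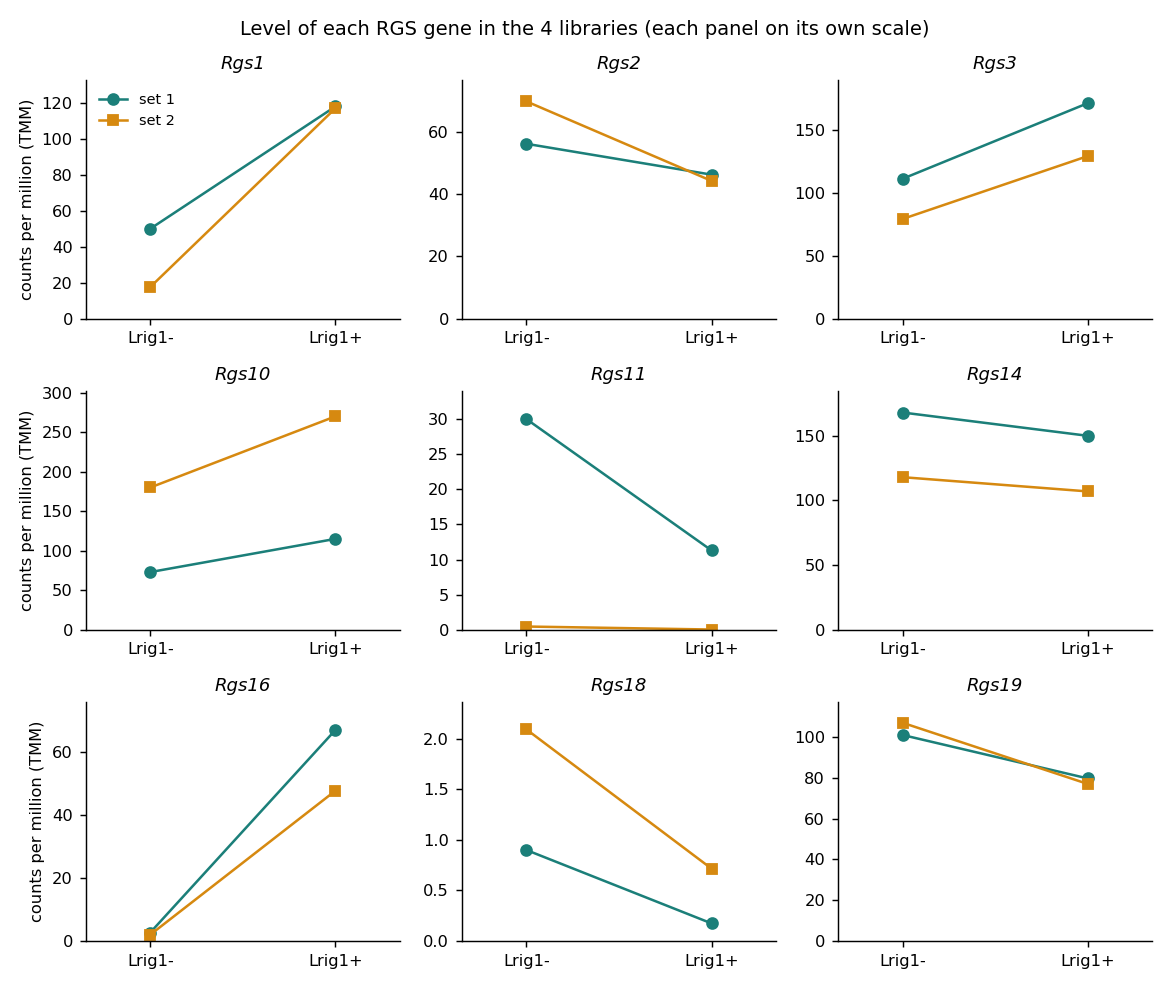
TMM-normalized CPM of the 9 RGS genes in the 4 libraries, 1 panel per gene on its own scale from 0, with Lrig1- left, Lrig1+ right and a line joining the 2 libraries of a set (circles, set 1; squares, set 2). The lines of *Rgs16* start close together near 0 and part as they rise, to 67.0 CPM in set 1 and 47.7 CPM in set 2. Those of *Rgs10* both rise and lie far apart, with the steeper rise in set 2. That of *Rgs11* in set 2 runs near 0.

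*Rgs16*, an R4 protein that T cells make after activation and that shortens signals through Gαi and Gαq, showed the largest ratio of the 9. Its level was 67.0 and 47.7 CPM in the Lrig1+ libraries of set 1 and set 2 and 2.67 and 1.98 CPM in the Lrig1- libraries. The underlying counts were 3484 and 2742 against 128 and 107. Both Lrig1+ libraries were high, both Lrig1- libraries were low, and the groups did not come near each other. The ratio was 25.1 in set 1 (95% interval 21.0 to 30.2, covering counting error only) and 24.1 in set 2 (19.9 to 29.5), which overlap. The log2 fold change was 4.62 with a standard error of 0.40 without the term for the set (adjusted p = 0.501 in edgeR) and 4.62 with a standard error of 0.11 with it (adjusted p = 3.79e-06). It was the only one of the 9 that DESeq2 called without the term. The regulatory T cell markers moved with it in both sets, and their part in its difference was not tested.

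*Rgs1*, an R4 protein of lymphocytes known for damping chemokine-driven movement, was the other gene with a ratio over 2 in both sets. It stood at 118 and 117 CPM in the Lrig1+ libraries and at 50 and 17.6 CPM in the Lrig1- libraries. The 2 Lrig1+ libraries were almost level, while the 2 Lrig1- libraries differed by 1.5 on the log2 scale, with set 2 the lower. The ratio was therefore 2.36 in set 1 (95% interval 2.25 to 2.47) and 6.62 in set 2 (6.18 to 7.09), and these counting intervals do not overlap. The log2 ratios of the 2 sets differed by 1.49, a difference that 5.64% of all genes tested exceeded. The log2 fold change with the term was 1.96 with a standard error of 0.30 (adjusted p = 0.00314), and the call was lost in edgeR's robust version of that fit (adjusted p = 0.213), which was added after seeing the data, and narrowly with limma on log2(FPKM + 1) and the term (adjusted p = 0.051). *Dusp1*, an immediate early gene that encodes a phosphatase, was also higher in both sets, at 283 and 237 CPM against 143 and 92.3 CPM, but the 12 immediate early genes on the list were not all of that direction: 3 were higher and 7 lower in both sets, with sums of 2754 and 1902 CPM against 2611 and 1900 CPM.

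*Rgs3*, the R4 gene with the longest span on the list, was 171 and 129 CPM in the Lrig1+ libraries and 111 and 79.1 CPM in the Lrig1- libraries. The lower Lrig1+ library lay above the higher Lrig1- library, so the groups did not overlap. The ratios of 1.55 (95% interval 1.49 to 1.60) and 1.63 (1.57 to 1.69) were close to each other. In the fit with the term its log2 fold change was 0.67 with a standard error of 0.07 (adjusted p = 0.000618).

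*Rgs2*, which acts mainly on Gαq, went the other way, at 46.2 and 44.2 CPM in the Lrig1+ libraries against 56.1 and 69.7 CPM in the Lrig1- libraries. The groups did not overlap, and the 2 Lrig1+ libraries were again nearly level. Its ratio was 0.824 in set 1 (95% interval 0.779 to 0.871) and 0.635 in set 2 (0.603 to 0.668). This gave a log2 fold change of -0.47 with a standard error of 0.10 (adjusted p = 0.0148), and the call was lost with limma on log2(FPKM + 1) and that term (-0.39, adjusted p = 0.0606).

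*Rgs18*, an R4 protein best known from platelets, megakaryocytes and myeloid cells, was the rarest of the R4 genes on the list. It had 9 and 41 counts in the Lrig1+ libraries and 43 and 113 counts in the Lrig1- libraries, which is 0.173 and 0.714 CPM against 0.898 and 2.09 CPM. The groups did not overlap, and within each group set 2 was the higher. The ratio was 0.193 in set 1 (95% interval 0.0826 to 0.401) and 0.341 in set 2 (0.233 to 0.492), so the intervals overlap and the depth gives no finer value. The log2 fold change was -1.88 with a standard error of 0.44 (adjusted p = 0.0187), and the DESeq2 fit with the term stood at the edge of the threshold (adjusted p = 0.0497). Limma with the term gave -0.42 on log2(FPKM + 1) (adjusted p = 0.0384), a scale that understates the change of so low a gene. Of the 10 platelet and megakaryocyte markers, 6 were at 0 in each library, and *Ppbp*, *Gp9*, *Treml1* and *Gp6* were at 0 in all 4. Their sums of 101 and 66.1 CPM against 263 and 238 CPM came almost wholly from 1 gene, the integrin *Itgb3*, at 98.3 and 65.8 CPM against 260 and 238 CPM. The 10 myeloid markers had sums of 49.2 and 233 CPM against 59.9 and 306 CPM, with none at 0, the 10 B cell markers 102 and 408 CPM against 81.9 and 804 CPM, the 8 NK cell markers 41.7 and 76.6 CPM against 63.7 and 145 CPM and the 2 CD8 markers 14.1 and 51.6 CPM against 19.5 and 97.3 CPM. Of the NK cell markers 7 were lower in both sets, and 1, *Eomes*, was higher, at 24.1 and 41.3 CPM against 4.2 and 9.18 CPM. Of the myeloid markers 5 were lower and 2 higher in both sets, with *Csf1r* at 13.2 and 65.9 CPM against 6.39 and 32.2 CPM. *Rgs18*, like the myeloid, B cell, NK cell and CD8 sums, was higher in set 2 than in set 1 in both groups. What part other cells had in its level was not tested.

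**Figure D2:**
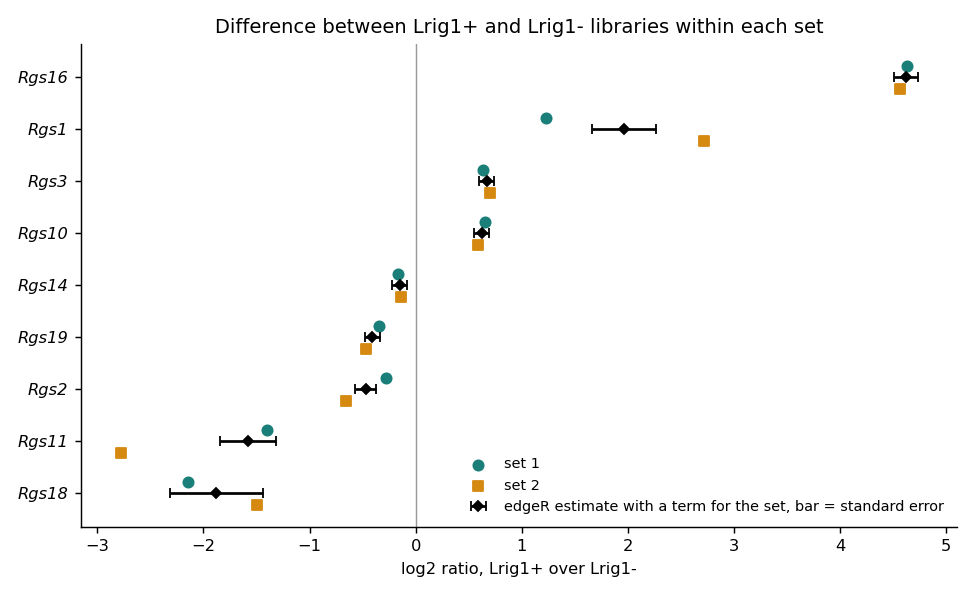
Log2 ratio of Lrig1+ over Lrig1- for the 9 RGS genes in set 1 (circles) and set 2 (squares), with edgeR's estimate from the fit with a term for the set and its standard error (diamonds and bars). All markers of *Rgs16*, *Rgs1*, *Rgs3* and *Rgs10* lie right of 0 and those of the other 5 genes left of it, and the sets lie furthest apart for *Rgs1* (1.23 and 2.72) and *Rgs11* (-1.40 and -2.78).

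The 2 R12 genes differed in direction. *Rgs10*, a short protein of immune cells that acts on Gαi, was 115 and 270 CPM in the Lrig1+ libraries and 73.0 and 180 CPM in the Lrig1- libraries. The Lrig1- library of set 2 lay above the Lrig1+ library of set 1, so the groups overlapped, while the ratio within a set was alike, at 1.57 (95% interval 1.51 to 1.64) and 1.5 (1.47 to 1.54). Set 2 was higher than set 1 by 1.23 on the log2 scale in the Lrig1+ libraries and by 1.3 in the Lrig1- libraries. Its log2 fold change was therefore 0.61 with a standard error of 0.69 without the term for the set and 0.62 with a standard error of 0.07 with it (adjusted p = 0.001).

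*Rgs14*, a scaffold that joins an RGS domain to Ras-binding and Gαi-binding domains, was the only one of the 9 that no fit called. It stood at 150 and 107 CPM in the Lrig1+ libraries against 168 and 118 CPM in the Lrig1- libraries. The groups overlapped, and the ratios were 0.891 (95% interval 0.864 to 0.920) and 0.906 (0.874 to 0.938). Its fitted log2 fold change was -0.15 with a standard error of 0.07 (adjusted p = 0.152), and that of DESeq2 with the term was -0.18 with a standard error of 0.09 (adjusted p = 0.131).

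*Rgs19*, the RZ protein once named GAIP for its binding to Gαi3, was 79.7 and 77.0 CPM in the Lrig1+ libraries and 101 and 107 CPM in the Lrig1- libraries. The groups did not overlap, and the 2 libraries of each group lay within 0.07 of each other on the log2 scale. The ratios were 0.786 (95% interval 0.754 to 0.820) and 0.722 (0.694 to 0.751). For the log2 fold change the fit gave -0.41 with a standard error of 0.07 (adjusted p = 0.00582). The 8 naive T cell markers were lower in the same libraries as *Rgs19* and *Rgs2*, and their part in these 2 differences was not tested.

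*Rgs11*, the R7 member, known mainly from neurons and retina, depended on the set more than on the group. It had 589 counts in the Lrig1+ library and 1435 in the Lrig1- library of set 1, and 2 and 25 counts in those of set 2. This is 11.3 and 30.0 CPM in set 1 and 0.0348 and 0.463 CPM in set 2, so both libraries of set 1 were high, both of set 2 were near 0 and the groups overlapped. Set 2 lay below set 1 by a log2 difference of -7.29 in the Lrig1+ libraries and of -5.91 in the Lrig1- libraries, and only 2 other genes of the 16123 tested fell as far in both. The ratio of Lrig1+ to Lrig1- was 0.378 in set 1 (95% interval 0.343 to 0.416) and 0.0753 in set 2 (0.00864 to 0.302), the second resting on 2 counts. The log2 fold change was -1.42 with a standard error of 2.69 without the term and -1.58 with a standard error of 0.26 with it (adjusted p = 0.00459). With limma on log2(FPKM + 1) and the term it was -0.69 and not called (adjusted p = 0.17), and on log2(FPKM + 0.1) it was -1.28 (adjusted p = 0.0148). *Arhgdig*, which GENCODE places on the other strand over the 5′ part of *Rgs11* at chr17:26199183-26207786 of GRCm38, had 0 counts in all 4 libraries. The kit kept the strand of the RNA, but whether the counting used it is not stated in the sources used here. Non-coding genes overlap *Rgs3* (Gm11209) and *Rgs16* (Gm28513) on the other strand and *Rgs10* (Gm15503) on the same strand. They were not counted apart here, so reads from them cannot be told apart from those of the 3 genes.

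Levels of different genes can be compared only per length, for which the FPKM values were rescaled to TPM (transcripts, with each library summing to 1000000). *Rgs10* had the highest level of the 9 in all 4 libraries, at 324 and 466 TPM in the Lrig1+ libraries and 213 and 286 TPM in the Lrig1- libraries. Below it the order depended on the group and on the set. *Rgs1* came at rank 2 in both Lrig1+ libraries, at 221 and 134 TPM, and at ranks 4 and 6 in the Lrig1- libraries, at 96.5 and 18.7 TPM. *Rgs16* came at rank 6 in both Lrig1+ libraries, at 71.7 and 31.2 TPM, and at rank 8 in both Lrig1- libraries, at 2.92 and 1.19 TPM. *Rgs14* (114 ± 63.3 TPM, SD, n = 2, in the Lrig1+ libraries) and *Rgs19* (99.8 ± 38.2 TPM) were neighbours in that order that did not differ beyond their spread between the sets. The same held in the Lrig1- libraries (127 ± 79.5 and 132 ± 48.2 TPM). Within libraries their order followed the set. In set 1 *Rgs14* was the higher, at 158 against 127 TPM in the Lrig1+ library and 183 against 166 TPM in the Lrig1- library. In set 2 *Rgs19* was the higher, at 72.8 against 69.0 TPM and 97.8 against 70.4 TPM. *Rgs3* held rank 5 in every library, and *Rgs2* ranged from 22.4 to 47.9 TPM.

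Summed over the 9 genes, the level was 1052 and 846 TPM in the Lrig1+ libraries and 808 and 538 TPM in the Lrig1- libraries. *Rgs1* and *Rgs16* made up 21.0% and 6.81% of that sum in the Lrig1+ library of set 1 and 15.8% and 3.69% in that of set 2, against 12.0% and 0.361%, and 3.47% and 0.22%, in the Lrig1- libraries. *Rgs19* and *Rgs14* had the larger share in the Lrig1- libraries, at 20.6% and 22.6% in set 1 and 18.2% and 13.1% in set 2, against 12.1% and 15.1%, and 8.60% and 8.15%. These are shares of RNA summed over cells, and protein was not measured.

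**Figure D3:**
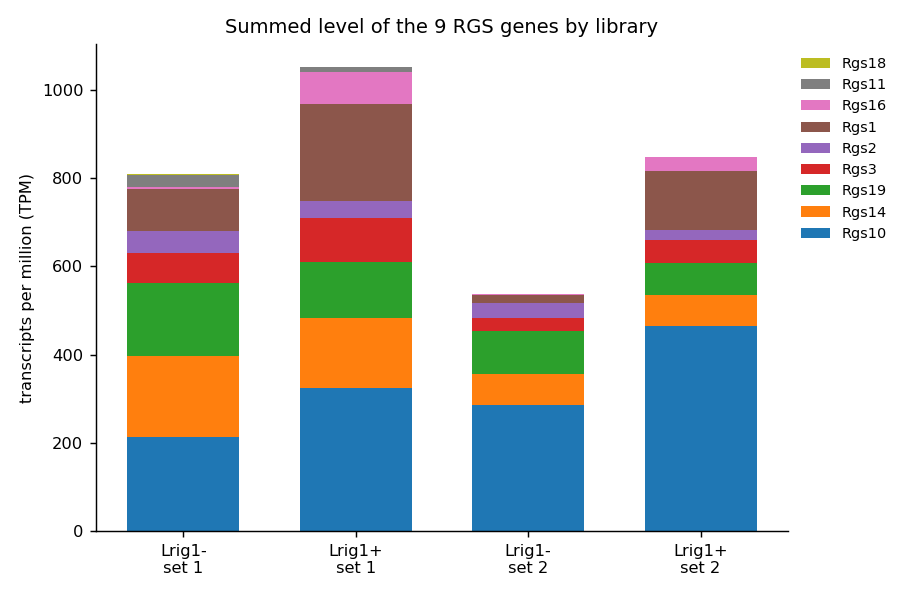
Summed level of the 9 RGS genes in TPM, stacked by gene, for the 4 libraries; each bar is 1 library and has no error. The Lrig1+ bars reach 1052 and 846 TPM and the Lrig1- bars 808 and 538 TPM, with the blocks of *Rgs1* and *Rgs16* larger in the Lrig1+ bars and *Rgs10* the largest block in all 4.

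The tables split *Rgs3* over 16 transcripts, of which 12 end at the same distal 3′ end and 4 end further upstream. The distal end took 50.7% (95% Clopper-Pearson interval 49.6% to 51.7%) and 47.0% (45.8% to 48.1%) of the *Rgs3* counts in the Lrig1+ libraries of set 1 and set 2. In the Lrig1- libraries it took 53.0% (51.7% to 54.4%) and 47.9% (46.4% to 49.4%). These shares of counts do not allow for length. As shares of FPKM, which do, the distal end took 55.4% and 58.2% in the Lrig1+ libraries and 57.6% and 59.9% in the Lrig1- libraries, so that set 2 was then the higher set and not the lower. On counts both classes were higher in the Lrig1+ libraries, with log2 ratios of 0.56 and 0.68 for the distal and of 0.70 and 0.73 for the proximal end. The intervals of the groups met at 51.7% in set 1 and overlapped in set 2. Over the 41 transcripts of the 9 genes, 31 were tested and 0 were called in either fit, as were 0 of the 45339 transcripts tested in all. In the transcript fit with the term, edgeR's quasi-likelihood test gave the single transcript of *Rgs16* an adjusted p of 0.881, though its counts were those of the gene. That fit could not call even so large a difference, so no conclusion on single transcripts is drawn from the 0. *Rgs1*, *Rgs2* and *Rgs16* are listed with 1 transcript each, and 94.7% to 96.7% of the *Rgs10* counts were on 1 of its 4 transcripts.

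Several of these genes lie side by side on mouse chromosome 1. *Rgs2*, *Rgs13*, *Rgs1*, *Rgs21* and *Rgs18* follow one another within 776 kb, and *Rgs8* and *Rgs16* are 42.7 kb apart. In the first run of genes the neighbours did not share a direction. *Rgs2*, 245 kb before the start of *Rgs1*, and *Rgs18*, 508 kb after it, were lower in both sets, while *Rgs1* between them was higher. *Rgs13*, known from germinal centre B cells, had 0 counts in set 1 and 17 and 27 counts in set 2 (Lrig1+ and Lrig1-), and *Rgs21* had 0 counts in all 4 libraries. In the second pair both genes were higher. *Rgs8*, an R4 gene known mainly from brain, had 28 and 44 counts in the Lrig1+ libraries and 0 in both Lrig1- libraries, which makes it at least 8.60-fold higher in set 1 and at least 13.8-fold higher in set 2 against a floor of 3 counts per library. In level it stayed far under its neighbour, at 0.220 and 0.193 TPM.

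**Figure D4:**
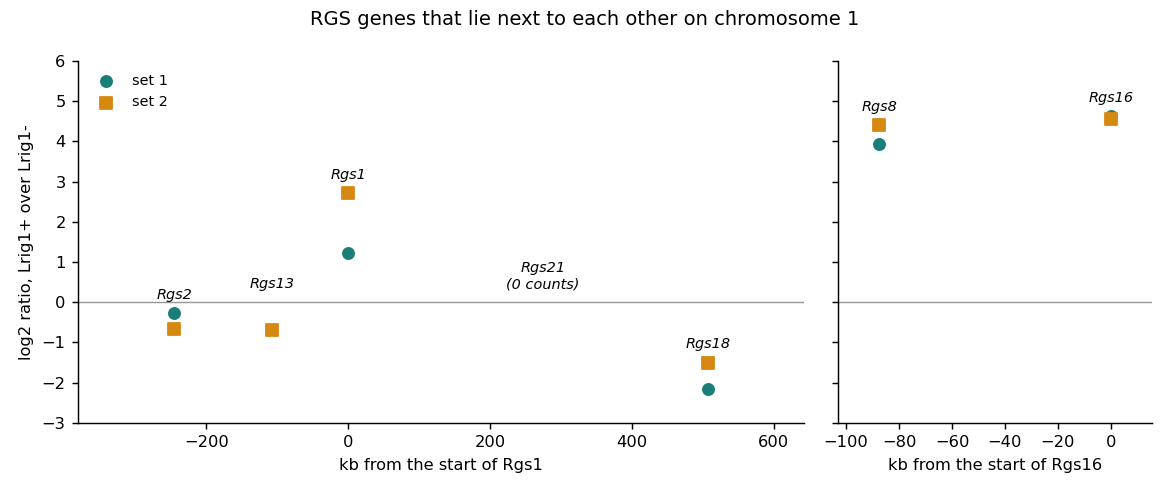
Log2 ratio of Lrig1+ over Lrig1- in set 1 (circles) and set 2 (squares) for the RGS genes around *Rgs1* (left) and *Rgs16* (right), by distance in kb from the start of that gene. *Rgs1* lies above 0 between *Rgs2* and *Rgs18* below it, *Rgs13* has a value in set 2 only, *Rgs21* has none, and the height of *Rgs8*, at 0 counts in the Lrig1- libraries, depends on the prior count of 2.

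The sequences just before the transcription start of *Rgs16* and of *Rgs2*, 2 R4 genes of chromosome 1 with opposite differences, are shown because they carry the same element at a like distance from the start. They are the 250 bases upstream of the start in RefSeq's promoter table (GRCm38.p6), given 5′ to 3′ in the direction of the gene. *Rgs16* is on the plus strand (chr1:153740103-153740352) and *Rgs2* on the minus strand (chr1:144004150-144004399). Capitals mark GC boxes (GGGCGG), which here lie on the opposite strand and so are read as CCGCCC, and the 2 of *Rgs16* overlap by 1 base.
Rgs16 promoter: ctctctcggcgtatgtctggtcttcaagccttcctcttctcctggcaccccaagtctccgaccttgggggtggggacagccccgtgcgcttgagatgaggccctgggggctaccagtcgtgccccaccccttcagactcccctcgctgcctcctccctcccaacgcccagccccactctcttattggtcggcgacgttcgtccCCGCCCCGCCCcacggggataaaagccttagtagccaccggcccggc
Rgs2 promoter: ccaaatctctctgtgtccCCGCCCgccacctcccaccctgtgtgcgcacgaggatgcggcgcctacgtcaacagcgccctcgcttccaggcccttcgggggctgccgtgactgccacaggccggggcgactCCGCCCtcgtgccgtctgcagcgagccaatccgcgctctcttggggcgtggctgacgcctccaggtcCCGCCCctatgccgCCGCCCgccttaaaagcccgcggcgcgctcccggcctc

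5 motifs were searched on both strands in these windows. They were the GC box (GGGCGG), the NFAT core (TGGAAA), the AP-1 site (TGANTCA), the cAMP response element (TGACGTCA) and the TATA box (TATAAA). *Rgs16* held 2 GC boxes, at -47 to -42 and at -42 to -37 from the start, and *Rgs2* held 4, the nearest at -52 to -47 and -38 to -33. *Rgs10*, which was higher in both sets, held 2, at -50 to -45 and -35 to -30. *Rgs3*, also higher in both, held 1 in the second of its windows, at -39 to -34. The transcripts listed with that start, NM_001081650 and NM_134257, had 0 counts in both Lrig1+ libraries. In the Lrig1- libraries they had 586 and 175 counts in set 1 and 0 in set 2, so most *Rgs3* counts were on transcripts with other starts. *Rgs19*, which was lower in both, held 1 in the first of its 3 windows, at -57 to -52. Its second window, which overlaps the first, held 2, of which the one at -224 to -219 is that same box. Its last window held 0. A GC box near the start was thus not particular to *Rgs16* and *Rgs2*. The GC box is common, with a match in 32.7% of the 32851 promoter windows of that length. The NFAT core, AP-1 site and cAMP response element had no match in the windows of *Rgs2*, *Rgs3*, *Rgs10*, *Rgs16* and *Rgs19*. Over all windows they matched in 18.6%, 6.75% and 1.55%. The TATA box matched in both windows of *Rgs3*, at -100 to -95 in the first and -177 to -172 in the second. It matched in 12.4% of all windows. A match is a description of the letters, and a missing one says only that they are not in this window. The table held 5 of the 9 genes; *Rgs1*, *Rgs11*, *Rgs14* and *Rgs18* were the others.

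Of the 12 other RGS genes of the mouse on the list, 4 passed the filter on low counts and 8 did not. *Rgs8* was among the 4 and passed only through the Lrig1+ libraries, which fixed its direction. *Rgs9*, an R7 gene known from photoreceptors and striatum, was 25 and 6.88 CPM in the Lrig1+ libraries and 0.898 and 0.259 CPM in the Lrig1- libraries. Both Lrig1+ libraries were high and both Lrig1- libraries low, with ratios of 27.9 (95% interval 20.6 to 38.7) and 26.5 (15.6 to 49.0). Its log2 fold change was 4.77 with a standard error of 0.18 (adjusted p = 9.01e-06). *Rgs9* and *Rgs11*, both of the R7 group, thus differed in opposite directions between the groups, while both were lower in set 2 than in set 1. *Rgs12*, an R12 gene, was 7.29 and 4.30 CPM against 8.50 and 6.37 CPM and was not called (adjusted p = 0.122).

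Among 14 tested genes of 15 that carry an RGS or RGS-like domain outside the family, 3 were called higher and 5 lower in the fit with the term, which called 14.6% of all genes higher and 12.8% lower, and their median log2 fold change was -0.18 beside -0.04 over all genes tested. *Arhgef12*, an exchange factor for RhoA that binds Gα12 and Gα13 through such a domain, was 72.4 and 23.3 CPM against 25.5 and 9.02 CPM (log2 fold change 1.44, standard error 0.09, adjusted p = 7.13e-05). Its relative *Arhgef11* was lower, at 62.5 and 25.5 CPM against 97.0 and 49.0 CPM (-0.78, standard error 0.09, adjusted p = 0.00107). The receptor kinase *Grk6* was 400 and 305 CPM against 556 and 478 CPM (-0.56, standard error 0.09, adjusted p = 0.00417).

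Of 10 tested genes of 16 that encode Gα, the subunit on which RGS proteins act, 4 were called higher and 0 lower with the term (14.6% and 12.8% of all genes), with a median log2 fold change of 0.11. *Gnai2*, the main Gαi gene of lymphocytes, was 611 and 850 CPM against 600 and 867 CPM and was not called (log2 fold change 0.00, standard error 0.10). *Gnaq*, whose product is a substrate of *Rgs2* and *Rgs16*, was 32.6 and 21.3 CPM against 8.77 and 5.96 CPM (1.86, standard error 0.10, adjusted p = 3.74e-05). *Gna14*, of the same subfamily, was 2.33 and 4.49 CPM in the Lrig1+ libraries and at 0 in both Lrig1- libraries. It is 1 of the 4 called, and it passed the filter only through the Lrig1+ libraries, which fixed its direction. Of 9 tested Gβ and Gγ genes of 17, 3 were called higher and 0 lower (14.6% and 12.8% of all genes), with a median of 0.02. These were *Gng2*, *Gng10* and *Gnb5*. *Gnb5* encodes the Gβ5 partner of the R7 proteins and was 4.6 and 5.73 CPM against 1.63 and 2.06 CPM (1.49, standard error 0.22, adjusted p = 0.00251). Its direction was thus that of *Rgs9* and not that of *Rgs11*.

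The receptors upstream of these G proteins moved in both directions. All 24 chemoattractant, lipid, prostaglandin and adenosine receptors on the list were tested, and the fit with the term called 10 higher and 9 lower, beside 14.6% and 12.8% of all genes, with a median of -0.04. Among the 10 were *Ptger2*, a Gαs-coupled prostaglandin E2 receptor (44.4 and 46.2 CPM against 3.01 and 3.61 CPM), and *Ccr8*, a chemokine receptor of regulatory and Th2 cells (23.8 and 23.5 CPM against 2.74 and 3.17 CPM). Among the 9 were *Cxcr6* (11.6 and 20.0 CPM against 47.1 and 110 CPM) and *Ccr2* (7.75 and 11.4 CPM against 28.7 and 45.1 CPM), both of which guide effector cells. *Ccr7* and *S1pr1*, which guide naive cells into and out of lymph nodes, were also among the 9, at 249 and 344 against 410 and 747 CPM and at 274 and 412 against 446 and 803 CPM. Of the 24 receptors, 11 were higher and 12 lower in both sets, beside 36.5% and 41.3% of all genes.

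Arrestins and other G protein regulators were, of the lists of G protein signalling, the one without a gene higher in both sets. Of 8 tested of 10, 0 were higher and 6 lower in both sets, beside 36.5% and 41.3% of all genes. Some of the 6 were nearly level, as *Ric8a* with log2 ratios of -0.02 and -0.14. The fit with the term called 0 higher and 3 lower, beside 14.6% and 12.8% of all genes, with a median of -0.15. *Arrb2*, which uncouples receptors from G proteins, was 189 and 142 CPM against 249 and 182 CPM (log2 fold change -0.38, standard error 0.07, adjusted p = 0.00946). *Gpsm3* and *Gpsm2*, which hold Gαi in its GDP form, were the other two. The lists were drawn up with earlier results of these data known, and no test of a list as a whole was made.

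**Figure D5:**
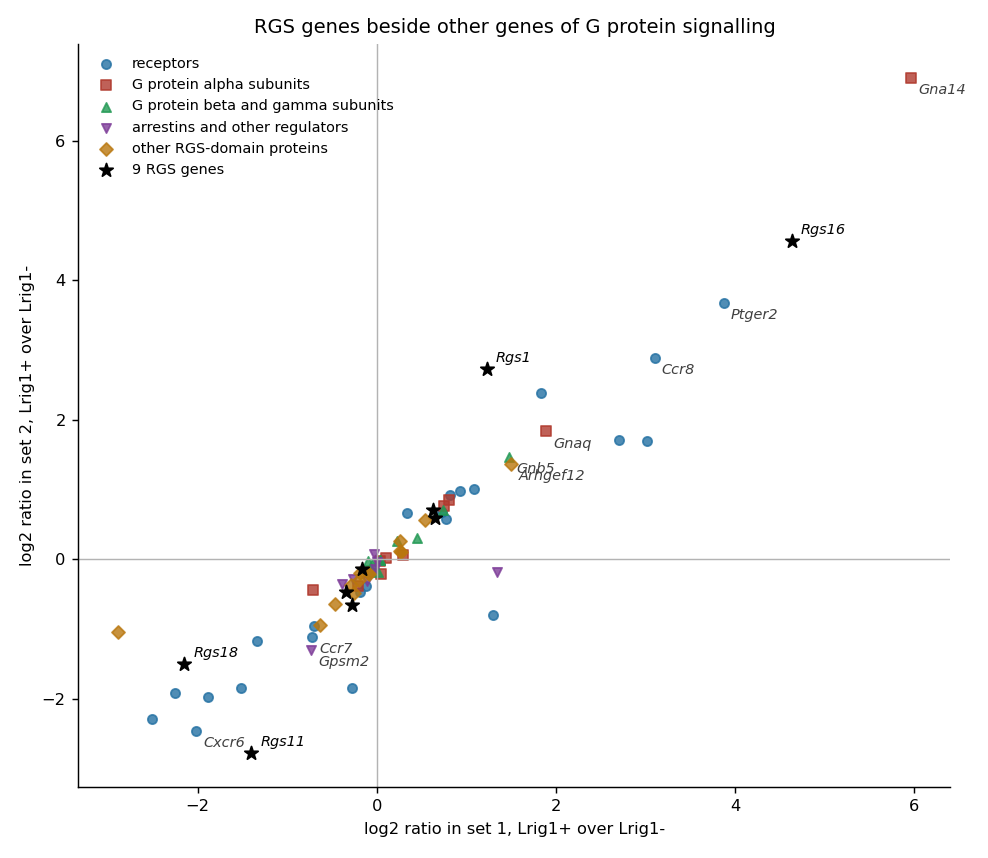
Log2 ratio of Lrig1+ over Lrig1- in set 1 (horizontal axis) and set 2 (vertical axis) for the 9 RGS genes (stars) and for tested genes of 5 lists of G protein signalling (other symbols), 1 point per gene. *Rgs16* lies further right and up than every receptor, the receptors spread to both ends, most Gα, Gβ and Gγ genes lie near 0, and the place of *Gna14*, at 0 counts in the Lrig1- libraries, depends on the prior count of 2.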

How the data were processed

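RNA of the sorted cells was made into stranded mRNA libraries, read as paired ends, trimmed with Trimmomatic 0.38, mapped with HISAT2 2.1.0 and assembled with StringTie 2.1.3b. The estimated counts per transcript were deposited by the authors without normalization, and their deposited FPKM values are scaled by transcript length and library. The submitters' processing notes name GRCm38 and mm10. A further table (1 file, 6 value columns) was not used, since its columns do not give the group. Gene counts are sums over transcripts. The filterByExpr filter, TMM scaling and quasi-likelihood test of edgeR 4.0.16 (R 4.3.3) were applied at a Benjamini-Hochberg adjusted p under 0.05 over all genes. The standard errors given for edgeR were computed from the test, as the absolute log2 fold change before shrinkage divided by the square root of F. A prior count of 2 was added for log2 ratios of a set. Ratio intervals are exact at a level of 95% and, like those of shares, cover counting error only. Alternatives were a term for the set (the table that holds a library), DESeq2 1.42.0, limma 3.58.1 after log2 transformation of FPKM with a pseudocount of 1 or 0.1, other filters and leaving out each library. The procedure was tested on simulated counts that gave every gene the same spread within a set. Genes whose ratio differed between the sets, such as *Rgs1*, were not covered by it. The 9 genes and the lists were chosen with earlier results of these data known. Named from a list were up to 4 genes with the highest CPM and up to 4 with the smallest p among those called, and, for each of the 9, the 3 genes most alike in pattern. The markers at 0 beside *Rgs18* were chosen after their values were seen.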

Additional observations from a re-analysis of the deposited data

How the results depend on the processing

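Of 140 log2 fold changes of the 9 genes under the alternatives, 136 kept their direction, 4 reversed, and 44 passed the threshold, which none passed in the quasi-likelihood test without the term for the table. The 4 arose in fits without that term that left out 1 library: *Rgs10* became -0.14 and *Rgs14* 0.07 without the Lrig1+ library of set 2, and *Rgs11* became 3.63 and *Rgs14* 0.16 without the Lrig1- library of set 1, where the remaining libraries of a group came from unequal sets. Over the 4 such fits the range was -0.14 to 1.4 for *Rgs10*, -8.68 to 3.63 for *Rgs11* and -0.40 to 0.16 for *Rgs14*. Genes of the 9 called higher and lower were 4 and 4 with the table block (the term for the table), 4 and 4 with DESeq2 and the table term, 1 and 0 with DESeq2 alone, 4 and 2 with the table block at 10 or more counts in every library (which drops *Rgs11* and *Rgs18*), 3 and 2 with limma on log2(FPKM + 1), where *Rgs1*, *Rgs2* and *Rgs11* lost their calls, and 4 and 4 on log2(FPKM + 0.1), both with the table term, and 3 and 4 in edgeR's robust fit with that block, a setting added once the data had been seen. Over all genes the same settings called 2358 and 2056, 1847 and 1960, 263 and 50, 2615 and 2669, 1911 and 1016, 2636 and 1549, and 2342 and 2065. Leaving out a library gave 0 to 1 of the 9 and 0 to 44 genes in all as higher, the highest of both without the Lrig1- library of set 1, where *Rgs16* was called; the lone library of a group was assumed to vary like the others. No paired analysis was possible because the columns carry no replicate numbers, so libraries were matched only by the table that holds both, in the fits with the table block. The other scalings left all directions of the 9 as they were. For 1 gene in groups of 2, the smallest p of an exact permutation test is 0.333, and the 2 counts of *Rgs11* and 9 of *Rgs18* limit their ratios.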

Other observations

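For each of the 9 genes the genes most alike in pattern were sought, by the Euclidean distance of the 4 log2 CPM values after each gene's mean was subtracted, among the 16123 genes tested and over 4 libraries. These distances rest on 4 points that share libraries and are a description only. The closest to *Rgs14* was *Dgcr8*, a subunit of the microRNA processor, at a distance of 0.01, and the closest to *Rgs19* was *Dclre1b*, a nuclease that protects telomeres, at 0.02. *Rgs2* was closest to *Peli1*, a ubiquitin ligase that restrains T cell activation (224 and 208 CPM in the Lrig1+ libraries against 266 and 331 CPM, distance 0.03). *Rgs3* was closest to *Tnip1*, a partner of the NF-κB inhibitor A20 (237 and 185 CPM against 157 and 115 CPM, distance 0.05), and *Rgs10* to *Fam162a* and *Cd320*, at 0.07 each. *Rgs16* was closest to *Prox1*, *Serpinc1* and *Shisa6*, at 0.37 to 0.41, of which the highest level in any library was 5.90 CPM. *Prox1* and *Shisa6* were at 0 in both Lrig1- libraries and passed the filter only through the Lrig1+ libraries, which fixed their direction. Their distances therefore depend on the prior count of 2. *Rgs1* was closest to *Stc2*, at 0.14 and at most 2.18 CPM. Of the 9, *Rgs11* had the furthest nearest gene, with *Mamdc4* at 0.90 and *Doc2g* at 0.95, which like it were lower in set 2 in both groups. The closest to *Rgs18* were *Scimp*, *Ifitm6* and *Sirpb1b*, at 0.24 to 0.36, which are known from myeloid or other antigen-presenting cells and reached at most 3.54 CPM. Among the 9 genes themselves, *Rgs2* and *Rgs19* were the closest pair, at 0.18, and *Rgs11* and *Rgs16* the furthest apart, at 9.10.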
